A study of Mus musculus with 10 samples.

Results

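The genes described here are 34 immediate early and stress response genes of the mouse, measured in haematopoietic stem cells with and without a Sox17 transgene. They were taken as a list of gene symbols: 8 subunits of the AP-1 family, 3 EGR factors, 3 NR4A receptors, 3 small MAF and CSRNP factors, 3 IER proteins, 5 dual-specificity phosphatases, 3 mRNA decay factors, 2 NF-kappaB feedback proteins and 4 stress and signalling regulators. Each gene was read from the probe set that carries its symbol alone, and 34 of 34 had exactly 1 such probe set among the 23410 probe sets that were tested. The array table held 35556 probe sets in all.

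Immediate early genes are transcribed within minutes of a growth factor, cytokine or stress signal, from promoters that are already loaded and need no new protein. Mitogen-activated protein kinases switch them on through serum response factor, its ETS partners and CREB. Many of their products then switch the signal off again, by dephosphorylating the kinases, holding NF-kappaB in the cytoplasm or destroying unstable mRNAs. In blood stem cells the mouse genes Egr1 and Nr4a1 are known for their part in keeping the cells at rest, and many of the genes are known to respond to the handling of freshly isolated cells.

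Sox17 encodes a SOX-family factor that fetal blood stem cells depend on and that adult stem cells normally lack. In the 5 transgenic samples a tetracycline-responsive Sox17 gene, (tetO)7CMVSox17-IRES-NucEGFP, was combined with the rtTA*M2 activator at the ROSA26 locus (allele Gt(ROSA)26Sortm1(rtTA*M2)Jae on a B6.Cg background). The activator is driven by that locus, which is active in most cell types, so that induction need not have been limited to stem cells. The 5 wild-type samples came from littermates, and the sources used here do not give whether these carried either allele alone. All mice were 8 weeks old and had drunk doxycycline at 2 mg per ml for 5 days, so that the drug was shared by both genotypes. Each sample was an aliquot of 10000 uncultured CD150+CD48-Lineage-Sca1+cKit+ bone marrow cells, sorted a second time before lysis and measured on 1 Affymetrix Mouse Gene 1.0 ST array. The aliquots are described as independent but no label ties one to a given animal, and the p-values therefore reflect only how far these samples spread, some of which may be technical.

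The values are log2 expression, on which a difference of 1 is a doubling, and differences are transgenic minus wild type. The Sox17 probe set itself averaged 4.37 ± 0.13 in transgenic and 4.21 ± 0.13 in wild-type samples (SD, n = 5 each; limma adjusted p = 0.855), so the genotype of each array rests on its label. The 10 measured stem cell markers averaged 8.41 to 8.59 over the transgenic arrays and 8.29 to 8.55 over the wild-type arrays, against 4.70 to 4.95 and 4.78 to 5.07 for 8 B cell markers. Other lists were less dim. On the transgenic and wild-type arrays 8 megakaryocyte and platelet markers averaged 6.46 to 6.71 and 6.84 to 7.45. For 11 endothelial markers this was 6.88 to 7.23 and 6.26 to 6.61. The arrays also fell into 2 sets by their values over all genes. Set A held transgenic arrays 1 to 3 with wild-type arrays 1 and 2, and set B held transgenic arrays 4 and 5 with wild-type arrays 3 to 5. Arrays correlated at 0.987 on average within a set and at 0.978 between sets, and the labels name no batch. Transgenic array 4 read as male by Xist (4.32, against at least 10.8 on each of the other 9 arrays) and by Y-linked genes. The number of arrays limits the precision of every value. In pooled cells of this kind, fewer cells of a type and less RNA per cell cannot be told apart.

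No gene of the list passed the threshold between transgenic and wild-type stem cells. Limma called 0 of the 34 at an adjusted p under 0.05, and 33 of all 23410 probe sets (0.141%). The differences nevertheless leaned to one side: 29 of 34 were positive, against 46.3% of all probe sets, and their median was 0.24 against -0.01 over all probe sets. At an unadjusted p under 0.05, 5 members were higher in transgenic cells (Nfkbia, Sgk1, Csrnp1, Dusp6 and Egr1) and 1 was lower (Tnfaip3). Over all probe sets 3.7% were higher and 2.9% lower at that p. Together these are 17.6% of the list, against 6.59% of all probe sets. The list was chosen with earlier results of these data known. For 2 members, Nfkbia and Sgk1, every transgenic array lay above every wild-type array, which was the case for 0.876% of all probe sets. With the array set as a block 29 of 34 differences were positive and their median was 0.28, and without wild-type array 1 the median was 0.15. Without wild-type arrays 1 and 2 together 18 of 34 were positive and the median was 0.02. That omission takes away every wild-type array of set A, so that genotype and array set are then mixed.

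**Figure D1:**
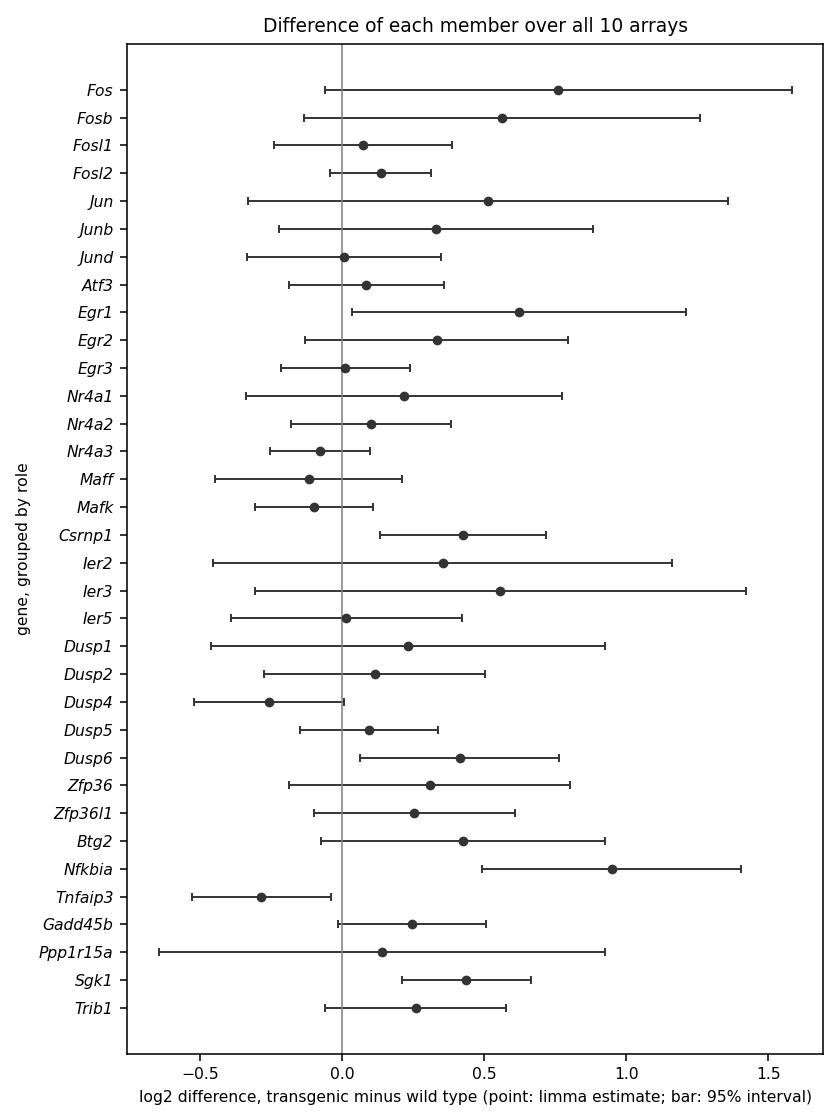
Difference of each of the 34 genes over all 10 arrays (log2, transgenic minus wild type; point, limma estimate; bar, 95% interval), grouped by role. Most points lie right of 0; the estimate for Nfkbia is 0.95 with an interval of 0.49 to 1.40, while the interval of Fos, at 0.76, crosses 0.

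Nfkbia encodes IkappaB-alpha, which binds NF-kappaB and is itself made in response to it. It had the smallest p of the list. On the transgenic arrays it read 7.94, 7.01, 7.43, 7.74 and 7.67, and on the wild-type arrays 6.78, 6.28, 6.95, 6.12 and 6.93. The groups did not overlap, and no single array decided the gap. Nfkbia averaged 7.56 ± 0.36 in transgenic and 6.61 ± 0.38 in wild-type cells (SD, n = 5 each), a difference of 0.95 (SE 0.21) or 1.93-fold. Its unadjusted p was 0.00077 and its adjusted p 0.151 (limma), and the adjusted p stayed between 0.0581 and 0.346 under the alternatives run. Set A gave a difference of 0.93 and set B one of 1.04. Tnfaip3 encodes A20, the other NF-kappaB feedback protein on the list, which edits ubiquitin on signalling adaptors. Tnfaip3 read 5.79, 5.66, 5.41, 5.68 and 5.90 on the transgenic arrays, against 6.19, 5.84, 5.80, 5.91 and 6.11 on the wild-type arrays. The groups overlapped, and the difference of -0.28 (SE 0.11, adjusted p = 0.641) ran opposite to that of Nfkbia.

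Sgk1, a serum- and glucocorticoid-inducible kinase, was the second gene whose groups did not overlap. It read 5.82, 5.65, 6.06, 5.64 and 5.67 on the transgenic arrays and 5.21, 5.19, 5.49, 5.45 and 5.33 on the wild-type arrays. The difference was 0.44 (SE 0.10, 95% interval 0.21 to 0.66, 1.35-fold; limma adjusted p = 0.206), with 0.65 from the arrays of set A and 0.23 from those of set B. The other stress and signalling regulators are Gadd45b, which binds stress kinases, Ppp1r15a, which steers protein phosphatase 1 to the initiation factor eIF2-alpha, and Trib1, a pseudokinase that directs the degradation of C/EBP-alpha. All of their differences were positive, and none passed the test. Gadd45b read 6.23, 6.05, 5.96, 6.0 and 5.68 on the transgenic arrays and 5.67, 5.61, 5.56, 5.86 and 6.0 on the wild-type arrays, a difference of 0.25 (SE 0.12, limma adjusted p = 0.782). Transgenic array 5 was the exception in the first group and wild-type array 5 in the second. Trib1 differed by 0.26 and Ppp1r15a by 0.14 (limma adjusted p = 0.852 and 0.988).

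**Figure D2:**
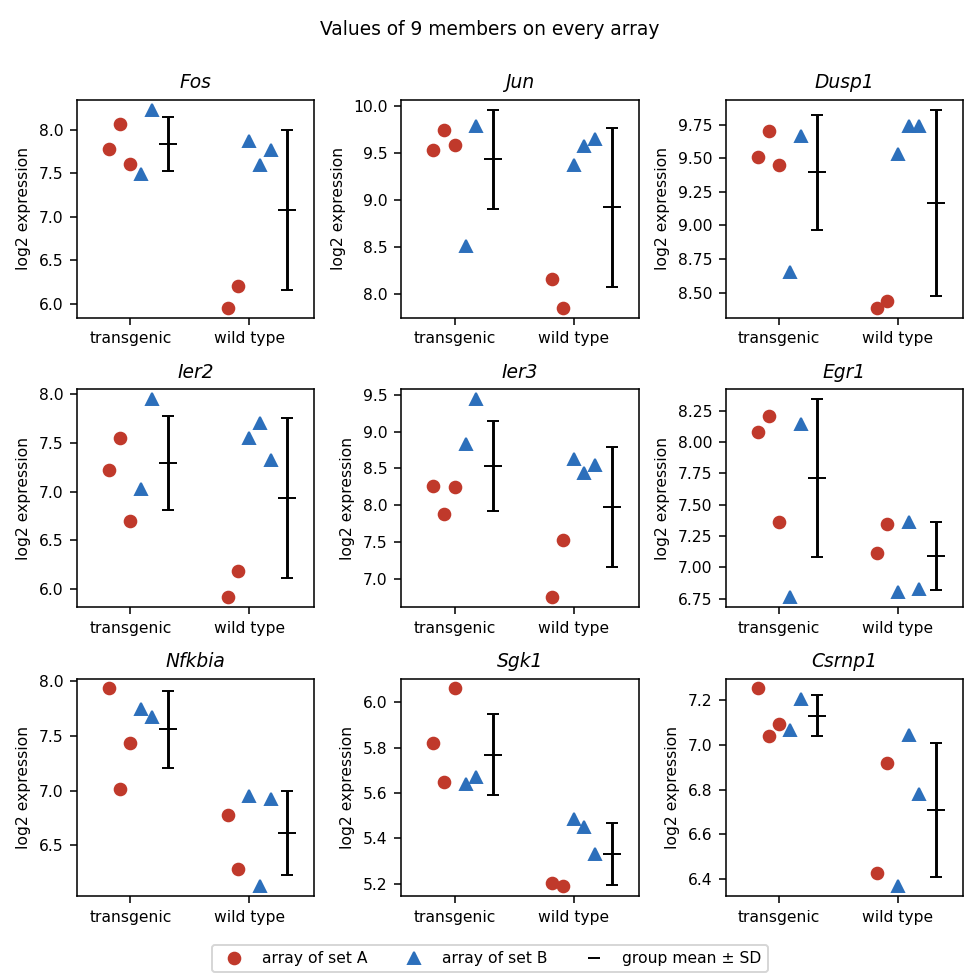
Log2 expression of 9 of the genes on every array, transgenic left and wild type right (red circles, arrays of set A; blue triangles, arrays of set B; line and bar, group mean ± SD, n = 5). Fos, Jun, Dusp1, Ier2 and Ier3 sit lowest on the wild-type arrays of set A, apart from which the groups overlap, while the transgenic values of Nfkbia and Sgk1 lie above all wild-type values.

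The AP-1 family supplies the subunits of the dimeric AP-1 transcription factor, and 8 of 8 differences were positive with none called. Fos, the founding member, read 7.78, 8.07, 7.60, 7.49 and 8.23 on the transgenic arrays, against 5.95, 6.20, 7.86, 7.59 and 7.76 on the wild-type arrays. Wild-type arrays 1 and 2 were low, and wild-type arrays 3 to 5 lay inside the transgenic range. Fos averaged 7.83 ± 0.31 in transgenic and 7.07 ± 0.92 in wild-type cells, a difference of 0.76 (SE 0.37, limma adjusted p = 0.793). Jun, the usual partner of Fos, read 9.54, 9.74, 9.59, 8.51 and 9.79 on the transgenic arrays and 8.16, 7.85, 9.37, 9.58 and 9.65 on the wild-type arrays. Here transgenic array 4 was low as well, and the difference was 0.51 (SE 0.38, limma adjusted p = 0.926). Junb, a Jun relative that restrains the growth of mouse blood stem cells, read 6.90, 6.61, 6.32, 6.40 and 7.34 on the transgenic arrays and 5.94, 5.82, 6.47, 6.84 and 6.86 on the wild-type arrays. Transgenic array 5 was highest and wild-type arrays 1 and 2 lowest. Its difference of 0.33 (SE 0.25) had a limma adjusted p of 0.928. Fosb, a close copy of Fos, differed by 0.56 (SE 0.32), from means of 8.22 ± 0.33 in transgenic and 7.66 ± 0.75 in wild-type cells (limma adjusted p = 0.857). Fosl2 and Fosl1, the FOS-related antigens, differed by 0.14 and 0.07, and Jund by 0.01. Atf3, a stress-induced leucine zipper protein, read 4.64, 4.83, 4.60, 4.33 and 4.20 on the transgenic arrays and 4.44, 4.43, 4.42, 4.25 and 4.64 on the wild-type arrays. Its difference was 0.08 (SE 0.12), with transgenic array 5 lowest and transgenic array 2 highest.

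The EGR factors are zinc finger proteins that bind GC-rich sites and relay growth signals. Egr1 read 8.08, 8.21, 7.36, 6.76 and 8.15 on the transgenic arrays and 7.11, 7.35, 6.80, 7.36 and 6.83 on the wild-type arrays. Transgenic arrays 1, 2, 3 and 5 lay above all wild-type arrays, array 3 only barely (7.363, against 7.358 on wild-type array 4). Transgenic array 4 lay below all of them. Egr1 averaged 7.71 ± 0.63 in transgenic and 7.09 ± 0.27 in wild-type cells, a difference of 0.62 (SE 0.27, 95% interval 0.03 to 1.21, limma adjusted p = 0.726). Egr2 differed by 0.33 (SE 0.21), with its highest value, 6.24, on transgenic array 5, and Egr3 by 0.01. The NR4A receptors are orphan nuclear receptors whose activity follows their amount. Nr4a1 read 6.44, 6.21, 5.97, 5.85 and 7.25 on the transgenic arrays, against 5.83, 5.72, 6.24, 6.40 and 6.46 on the wild-type arrays. Apart from transgenic array 5 the groups overlapped, and the difference was 0.22 (SE 0.25, limma adjusted p = 0.956). Nr4a2 differed by 0.10. Nr4a3 differed by -0.08 at a mean of 3.49 ± 0.13 in transgenic and 3.56 ± 0.06 in wild-type cells, near the lower end of the array scale, where differences are compressed.

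Csrnp1, a nuclear protein rich in cysteine and serine, stood apart from the small MAF factors. It read 7.25, 7.04, 7.09, 7.07 and 7.21 on the transgenic arrays and 6.42, 6.92, 6.37, 7.05 and 6.78 on the wild-type arrays. The transgenic values were close together, and wild-type array 4 alone reached them. The difference was 0.42 (SE 0.13, limma adjusted p = 0.426), with 0.46 from set A and 0.41 from set B. Maff and Mafk, small MAF proteins that dimerise with CNC factors such as NRF2, differed by -0.12 and -0.10.

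The IER proteins are short-lived products of immediate early genes, of which Ier3 is known for its part in cell survival under stress. Ier2 read 7.22, 7.55, 6.70, 7.02 and 7.95 on the transgenic arrays and 5.92, 6.18, 7.55, 7.70 and 7.32 on the wild-type arrays. Ier3 read 8.26, 7.88, 8.25, 8.84 and 9.44 on the transgenic arrays and 6.75, 7.52, 8.62, 8.44 and 8.55 on the wild-type arrays. For both genes wild-type arrays 1 and 2 were the lowest of all, and transgenic array 5 was the highest. The differences were 0.35 (SE 0.37) for Ier2 and 0.56 (SE 0.39) for Ier3, with limma adjusted p-values of 0.951 and 0.911. Ier5 differed by 0.01.

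The dual-specificity phosphatases switch off mitogen-activated protein kinases. Dusp6 acts on ERK in the cytoplasm and read 6.94, 7.11, 7.19, 6.33 and 6.70 on the transgenic arrays, against 6.51, 6.64, 6.51, 6.19 and 6.36 on the wild-type arrays. Transgenic array 4 alone fell into the wild-type range, and the difference was 0.41 (SE 0.16, limma adjusted p = 0.627). Dusp4, a nuclear relative, read 5.71, 5.60, 5.62, 5.28 and 5.56 on the transgenic arrays and 6.10, 5.86, 5.75, 5.48 and 5.87 on the wild-type arrays. Its difference was the largest negative one after that of Tnfaip3, at -0.26 (SE 0.12, limma adjusted p = 0.771). Dusp1, the most stress-responsive of the family, read 9.51, 9.70, 9.45, 8.65 and 9.67 on the transgenic arrays and 8.39, 8.43, 9.53, 9.74 and 9.74 on the wild-type arrays. Low values thus stood in both groups, and the difference was 0.23 (SE 0.32, limma adjusted p = 0.963). Dusp2 and Dusp5, both nuclear, differed by 0.11 and 0.10.

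Zfp36 encodes tristetraprolin, which binds AU-rich elements and speeds the decay of cytokine and immediate early mRNAs. It read 8.87, 9.23, 8.76, 8.96 and 9.64 on the transgenic arrays and 8.37, 8.22, 9.17, 9.12 and 9.04 on the wild-type arrays, a difference of 0.31 (SE 0.23, limma adjusted p = 0.919). Btg2, an antiproliferative protein that recruits the deadenylase, read 7.75, 8.04, 7.04, 6.77 and 7.25 on the transgenic arrays and 6.95, 6.66, 7.20, 6.72 and 7.19 on the wild-type arrays. Transgenic arrays 1 and 2 stood highest, and the difference was 0.43 (SE 0.23, limma adjusted p = 0.833). Zfp36l1, a relative of tristetraprolin, differed by 0.25 (SE 0.16).

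The comparison was also made within each array set. In set A 29 of 34 differences were positive, against 48.9% of all probe sets, with a median of 0.38. Limma called 1 member there, and 14 of 23410 probe sets (0.0598%). That member was Fos, which rose by 1.74 (SE 0.22, adjusted p = 0.0338) over the 3 transgenic and 2 wild-type arrays. At an unadjusted p under 0.05, 15 members were higher and 2 lower (Dusp4 and Tnfaip3), which is 50% of the list against 5.19% of all probe sets (2.93% higher and 2.27% lower). All of these differences rest on the same 2 wild-type arrays. Every transgenic array exceeded every wild-type array of set A for 21 members, against 11% of all probe sets.

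In set B 20 of 34 differences were positive, against 45.8% of all probe sets, and the median was 0.11. None was called, and 15 probe sets were (0.0641%). At an unadjusted p under 0.05, 5 members were higher (Nfkbia, Ier3, Zfp36l1, Fosl2 and Egr2), which is 14.7% of the list, against 7.43% of all probe sets in either direction and 4.3% higher. Every transgenic array exceeded every wild-type array of this set for 8 members, against 9.44% of all probe sets. Fos differed by 0.12 in set B (SE 0.22, adjusted p = 0.953), Jun by -0.38 and Dusp1 by -0.51. Fosb, at 0.11, had differed by 1.29 among the arrays of set A, and Ier2, at -0.04, by 1.11. Egr1 differed by 0.46, and by 0.65 among the arrays of set A.

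The difference between the sets was tested itself, as the set B minus the set A value. Limma called 0 members and 0 of 23410 probe sets (0%). At an unadjusted p under 0.05, 7 members had a smaller difference in set B (Fos, Fosb, Jun, Atf3, Nr4a2, Ier2 and Dusp1), against 1.92% of all probe sets, and 0 had a larger one, against 2.05%. For Fos the value was -1.62 (SE 0.31, adjusted p = 0.783), for Dusp1 -1.65 (SE 0.34, adjusted p = 0.783) and for Jun -2.0 (SE 0.42, adjusted p = 0.825). A separate fit compared set B with set A across both genotypes. The sets were found from the values of these arrays, so such differences are built in, and the calls describe what separates the sets rather than test it. That fit called 5 members: Ier3 (1.21), Ier5 (0.53), Zfp36 (0.58) and Maff (0.39) were higher in set B, and Zfp36l1 was lower (-0.42). That is 14.7% of the list, against 9.74% of all probe sets (6.02% higher and 3.72% lower in set B).

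**Figure D3:**
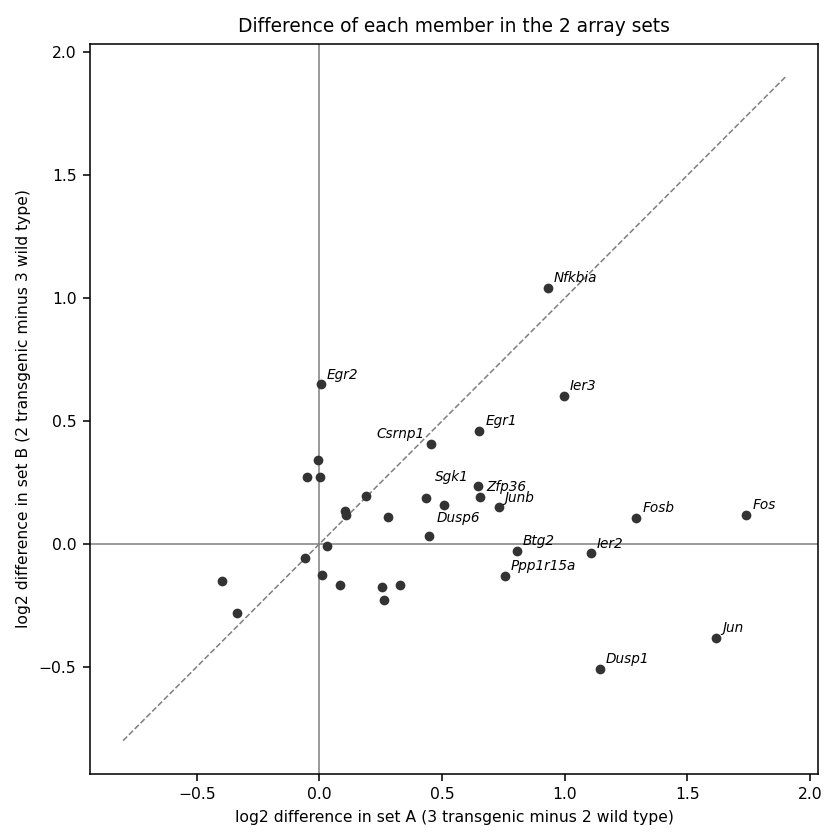
Difference of each gene (log2, transgenic minus wild type) in set A on the horizontal axis and in set B on the vertical axis; the dashed line marks equal differences. Fos, Fosb, Jun, Ier2 and Dusp1 lie far right and near or below 0 on the vertical axis, and Nfkbia lies close to the dashed line.

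Wild-type arrays 1 and 2 were the 2 lowest of all 10 arrays for 11 members: Fos, Fosb, Jun, Junb, Nr4a1, Ier2, Ier3, Dusp1, Zfp36, Ppp1r15a and Sgk1. That is 32.4% of the list, against 2.51% of all probe sets. Transgenic array 5 was the highest array for 14 members, against 10.4% of all probe sets. The mean deviation of the 34 genes from their own means was 0.18, 0.17, -0.02, -0.09 and 0.35 on the transgenic arrays, and -0.35, -0.36, 0.01, 0.04 and 0.07 on the wild-type arrays. Transgenic arrays 3 and 4 thus lay below wild-type arrays 3 to 5, and the low end of the scale was held by wild-type arrays 1 and 2.

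**Figure D4:**
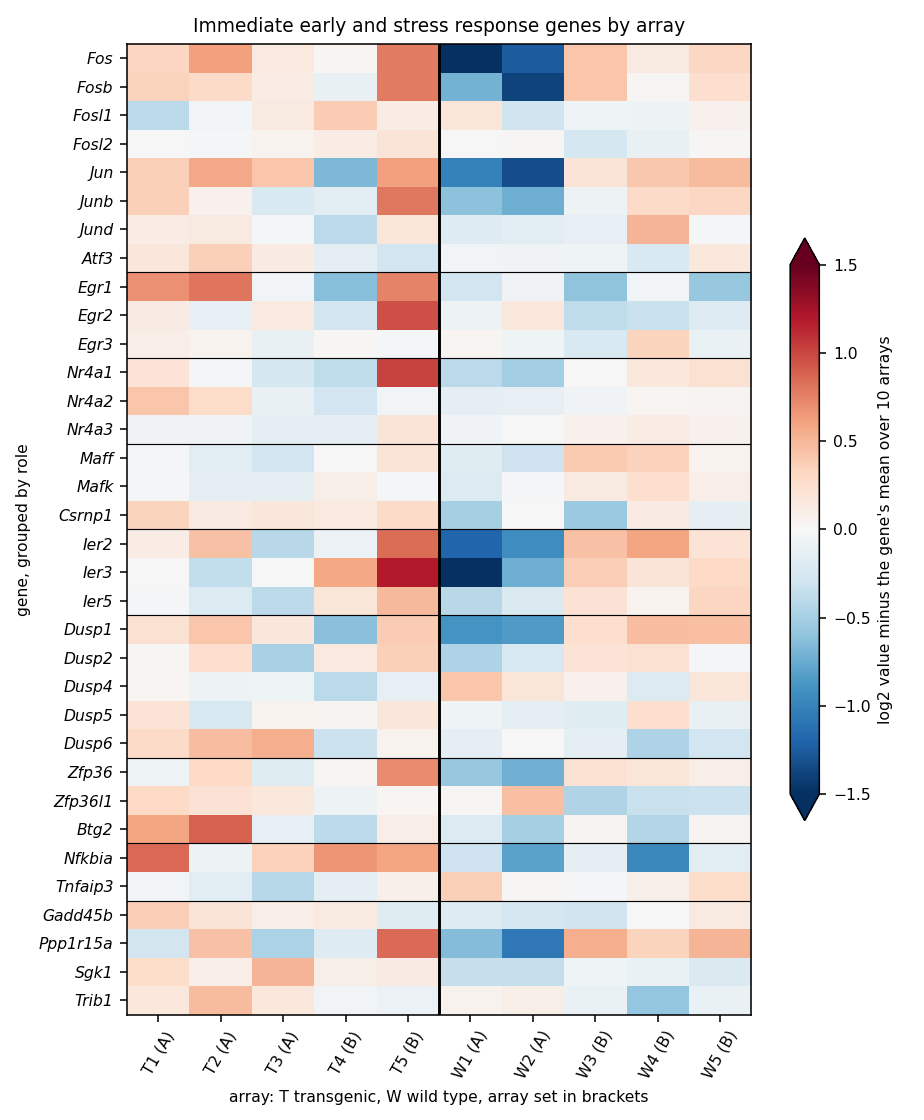
Log2 value of each of the 34 genes on each array, minus the mean of that gene over 10 arrays (red above, blue below its mean), with transgenic arrays left of the line and the array set in brackets. Wild-type arrays 1 and 2 are blue across Fos, Fosb, Jun, Junb, Ier2, Ier3 and Dusp1, and transgenic array 5 is red for most of these.

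Co-variation within groups was described by Pearson correlations. They were taken over deviations from group means, with n = 10 arrays, and describe values that share an array and an amplified cDNA. Genes that were low together on wild-type arrays 1 and 2 share that deviation by construction. Over the 561 pairs of members the median was 0.15, and 25.1% of pairs exceeded 0.5. Junb followed the mean of the other members most closely (0.95), and then came Ier2 (0.91), Dusp1 (0.90), Zfp36, Nr4a1 and Fos (0.89 each). Nfkbia (0.06), Sgk1 (0.22) and Egr1 (0.30) followed it little, and Zfp36l1 (-0.59) and Trib1 (-0.44) ran against it. The median within-group SD was 0.28, against 0.19 over all tested probe sets and 0.24 over the probe sets brighter than the median, to which 27 of the 34 members belong. By this SD 12 of 34 members (35.3%) lay in the top 10% of all probe sets, against 15.5% of the brighter probe sets.

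Promoter sequences from RefSeq (build GRCm38.p6) were at hand for 28 of the 34 genes, in 43 windows of 250 bases before to 50 after a start. The windows of one gene can overlap. Egr1, Egr3, Dusp4, Fosl1, Ier2 and Trib1 are named only. Fos, Dusp1 and Zfp36 were low together on wild-type arrays 1 and 2. Nfkbia, lowest on wild-type array 4, followed the mean of the other members little (Pearson r 0.06). Upstream sequences are shown for these genes. They are given 5′ to 3′ on the strand of the gene, over chr12:85473640-85473889 (plus strand, Fos), chr17:26508473-26508722 (minus strand, Dusp1), chr7:28379229-28379478 (minus strand, Zfp36) and chr12:55492648-55492897 (minus strand, Nfkbia). Capitals mark the NF-kappaB and TATA letters of Fos, the cyclic AMP response element of Dusp1, the CArG box of Zfp36 and the NF-kappaB letters of Nfkbia.
Fos: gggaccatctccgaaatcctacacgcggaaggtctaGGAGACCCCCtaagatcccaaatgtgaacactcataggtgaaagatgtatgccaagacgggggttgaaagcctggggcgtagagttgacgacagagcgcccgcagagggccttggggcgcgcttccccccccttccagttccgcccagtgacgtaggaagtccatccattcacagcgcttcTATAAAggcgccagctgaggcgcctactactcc
Dusp1: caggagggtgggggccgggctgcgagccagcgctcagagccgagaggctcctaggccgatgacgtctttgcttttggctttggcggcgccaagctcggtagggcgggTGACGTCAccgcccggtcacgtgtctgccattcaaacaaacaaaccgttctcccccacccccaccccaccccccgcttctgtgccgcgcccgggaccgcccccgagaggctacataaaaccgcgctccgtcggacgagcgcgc
Zfp36: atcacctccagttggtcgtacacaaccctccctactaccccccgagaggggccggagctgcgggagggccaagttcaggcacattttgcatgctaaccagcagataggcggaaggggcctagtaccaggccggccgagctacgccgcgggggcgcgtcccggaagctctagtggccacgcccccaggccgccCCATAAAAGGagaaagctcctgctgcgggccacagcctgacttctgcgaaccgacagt
Nfkbia: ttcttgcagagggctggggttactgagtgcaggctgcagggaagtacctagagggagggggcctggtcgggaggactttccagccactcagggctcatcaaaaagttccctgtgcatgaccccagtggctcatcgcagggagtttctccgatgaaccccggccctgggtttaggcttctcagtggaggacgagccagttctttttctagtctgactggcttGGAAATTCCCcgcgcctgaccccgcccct

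Positions count back from the start, and both strands were searched. The TATA letters of Fos began at -33 and its NF-kappaB letters at -214, the cyclic AMP response element of Dusp1 at -143, the CArG box of Zfp36 at -58 and the NF-kappaB letters of Nfkbia at -29. The CArG box, the letters that serum response factor binds, was in 6 of 43 windows (14.0%) of 3 genes (Dusp5, Egr2 and Zfp36), against 1.63% of all 32851 windows. Most of these windows belong to Egr2, and several of them overlap and hold the same box. The share therefore counts that box more than once. The cyclic AMP response element TGACGTCA, a CREB site, was in 4 windows (9.30%), those of Btg2, Dusp1, Maff and Ppp1r15a, against 1.79%. The NF-kappaB letters were in 9 windows (20.9%), among them Nfkbia, Tnfaip3, Ier3 and Fos, against 8.46%. The TATA letters TATAAA were in 10 windows (23.3%), against 13.6%. The AP-1 letters TGACTCA were in 2 windows (4.65%), of Csrnp1 and Tnfaip3, against 5.20%, and the EGR letters GCGTGGGCG in 1 (2.33%), of Maff, against 0.612%. These are matches of letters, not sites shown to be bound.

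Other genes of the same pathways were described from further lists, none of whose members passed the threshold over all 10 arrays. Of 30 other primary response genes 22 differences were positive, with a median of 0.12, and 10 were higher and 1 lower at an unadjusted p under 0.05. The positive share was 73.3%, against 46.3% of all probe sets, of which 3.7% were higher and 2.9% lower at that p. This list was chosen with earlier results of these data known, so its lean is not independent of them. The 3 with the smallest p were Bhlhe40, a circadian and hypoxia-responsive repressor, Id2, an inhibitor of E proteins, and Per1, a clock gene. Bhlhe40 averaged 6.17 ± 0.45 in transgenic and 5.03 ± 0.21 in wild-type cells, a difference of 1.14 (SE 0.20, limma adjusted p = 0.0636). Id2 differed by 0.74 and Per1 by 0.73, with limma adjusted p-values of 0.0986 and 0.115. For all 3 every transgenic array lay above every wild-type array, as was the case for 5 of the 30 genes and 0.876% of all probe sets. Within set A limma called 2 of the 30 higher, the zinc finger gene Klf6 (1.32, adjusted p = 0.00743) and Nfkbiz (1.27, adjusted p = 0.0206), an atypical IkappaB protein. Of all 23410 probe sets 14 (0.0598%) were called there. Differences in set A rest on wild-type arrays 1 and 2. These were the 2 lowest of the 10 arrays for 9 of the 30 genes, against 2.51% of all probe sets.

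Of 24 upstream genes of the SRF, CREB and MAP kinase routes 21 were measured, 16 differences were positive and the median was 0.17. Over all probe sets 46.3% were positive. At an unadjusted p under 0.05 (limma), 6 of the 21 were higher and 0 lower, against 3.7% and 2.9% of all probe sets. This list too was chosen with earlier results of these data known. The smallest p-values belonged to Mrtfb, a coactivator of serum response factor (0.95, limma adjusted p = 0.207), Elk3, one of its ETS partners (0.24), and Rps6ka3, a kinase that acts on CREB (0.51). Of 12 measured heat shock genes 8 differences were positive, with a median of 0.06, and the chaperone genes Dnajb4, Dnajb1 and Bag3 led with 0.34, 0.37 and 0.36. Of 12 integrated stress response genes 7 were positive (median 0.05), with Vldlr at 0.65, Cebpg at -0.15 and Ddit4 at 0.18. Of 13 further MAP kinase feedback genes 8 were positive (median 0.01), with Spry1 at 0.39, Spry4 at -0.23 and Dusp3 at -0.36. At that unadjusted p, 2 heat shock genes, 1 integrated stress response gene and 1 of these feedback genes were higher. Lower were 0, 0 and 2.

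Markers of some other cell types moved with the arrays named above, and others did not. The mean deviation on wild-type arrays 1 and 2 was -0.11 and 0.18 for B cell markers, and -0.09 and 0.18 for mast cell and basophil markers. That of stromal markers was lowest on wild-type array 3 (-0.23). Stem cell markers gave -0.10 and -0.16 on wild-type arrays 1 and 2, and -0.12 on wild-type array 4. Erythroid markers were lowest on transgenic array 3 (-0.25) and highest on wild-type array 5 (0.36). T and NK cell markers were highest on transgenic arrays 4 and 5 (0.23 and 0.18) and lowest on transgenic array 2 (-0.15). The mean deviation of 14 granulocyte and monocyte markers from their own means was -0.03, -0.08, -0.16, 0.29 and 0.87 on the transgenic arrays and -0.24, -0.35, -0.19, -0.03 and -0.08 on the wild-type arrays. It was highest on transgenic array 5, the highest array for 14 of the 34 immediate early and stress genes, and lowest on wild-type array 2. It was next highest on transgenic array 4, where the mean deviation of the 34 genes was -0.09. For 8 megakaryocyte and platelet markers the mean deviation lay between -0.44 and -0.18 on the transgenic arrays. On the wild-type arrays it lay between -0.05 and 0.56, with wild-type arrays 1 and 2 highest. Of these markers 6 were lower and 2 higher in transgenic cells, and Pf4, a platelet chemokine, was called lower (-2.53). For 11 endothelial markers the mean deviation lay between 0.10 and 0.45 on the transgenic arrays. On the wild-type arrays it lay between -0.52 and -0.17, with wild-type arrays 1 and 2 lowest. Of these markers 8 were higher and 3 lower in transgenic cells, and Ecscr (1.71) and Egfl7 (1.21) were called higher. The part of all these marker genes in the differences of the immediate early genes was not tested.

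**Figure D5:**
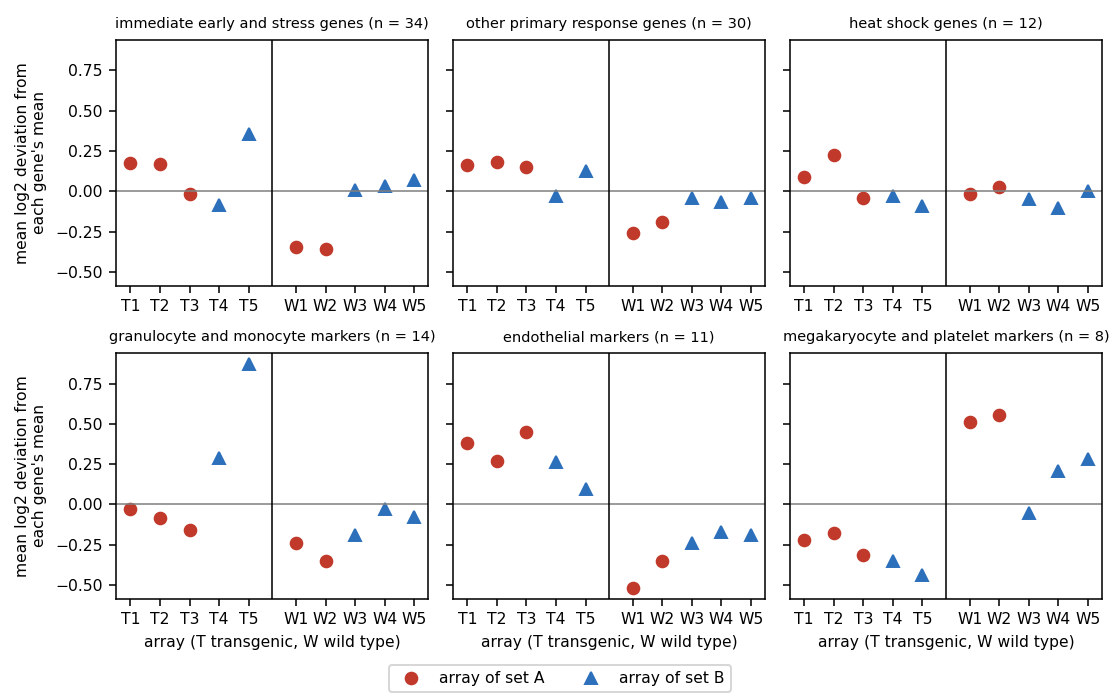
Mean deviation (log2) of 6 gene lists from the mean of each gene, by array, transgenic arrays left of the line and wild-type arrays right of it (red circles, set A; blue triangles, set B). The 34 genes are lowest on wild-type arrays 1 and 2 (-0.35 and -0.36), where endothelial markers are lowest and platelet markers highest, and highest on transgenic array 5 (0.35), where granulocyte and monocyte markers reach 0.87.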

How the data were processed

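Gene expression was measured on 10 single-colour arrays, 5 of transgenic and 5 of wild-type stem cells. The values are log2 intensities that the authors deposited after RMA, a background correction, quantile normalization and summary of probes, with affy and limma named per the submitters' processing notes. Probe sets were named through the platform annotation. Of 35556 probe sets, 21789 had 1 gene symbol, 1621 several and 12146 none given here, and the 23410 with a symbol were tested. No array was identical to another.

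Groups were compared by two-sided tests in limma (lmFit, then eBayes; version 3.58.1 under R 4.3.3), with Benjamini-Hochberg adjustment over 23410 probe sets and a threshold of 0.05. A model of 4 means, 1 for each genotype in each array set, gave the values within sets and the difference between sets. The sets come from the values of these arrays. The replicate numbers of the titles were checked for pairing: deviations of equally numbered arrays correlated at 0.24, 0.35, -0.14, 0.11 and 0.33. Unequally numbered arrays were not compared, and only the arrays numbered 3 lay in different sets. The check therefore cannot settle pairing, and the numbers were not taken as pairs.

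The members and the other lists were chosen with earlier results of these data known. Every member is named with its difference. Values on all arrays are given for the 10 members with the smallest p, the 3 with the smallest p of the difference between sets, and Fos, Jun, Junb, Egr1, Atf3, Nr4a1, Dusp1, Zfp36 and Ier2; those of Ier3 were added after its values were seen. Of other lists the 3 genes with the smallest p and any past the threshold are named; marker lists are given by their mean deviation and the genes called over all arrays. Alternatives were the array set or replicate number as a block, another normalization, array weights, a floor on dim values, a stricter threshold, all probe sets, and each array left out.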

Additional observations from a re-analysis of the deposited data

Results flagged for a closer look

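In a group of 5 arrays, 1 array was far from the other 4 for 6 of the 68 checks made (34 genes in 2 groups, Dixon's test); chance gives about 1 in 20. On transgenic array 4, the male one, Jun read 8.51 (9.54 to 9.79 on the others) and Dusp1 8.65 (9.45 to 9.70). On transgenic array 5 Nr4a3 read 3.71 (3.38 to 3.47). On wild-type array 4 Jund read 7.15 (6.45 to 6.61), Dusp5 6.88 (6.44 to 6.56) and Trib1 5.30 (5.78 to 5.98).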

How the results depend on the processing

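In the comparison of all transgenic with all wild-type arrays limma called 0 members under each alternative run, the omission of single arrays included. The number of probe sets called was 33. It was 91 under a block for array set, 15 over all 35556 probe sets, 8 with a floor at the 20th percentile, 7 at a threshold of 0.01 and 12 without wild-type arrays 1 and 2. Leaving out 1 array at a time gave 15 (without transgenic array 4) to 71 (without transgenic array 2). Members with an unadjusted p under 0.05 numbered 6, and 11 under that block, and 4 to 7 with 1 array left out. Positive differences numbered 29, and 25 to 29 with 1 array left out. The median difference was 0.24, and 0.15 to 0.30 with 1 array left out.

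Leaving out wild-type arrays 1 and 2 together, an alternative chosen after seeing the data, gave 18 positive differences and a median of 0.025. It leaves set A with no wild-type array, so genotype and set are then mixed. Differences then turned negative for Dusp1 (-0.27), Ier2 (-0.23), Ier5 (-0.19), Jund (-0.11), Jun (-0.10), Dusp2 (-0.082), Nr4a1 (-0.020), Zfp36 (-0.018), Junb (-0.0061), Ier3 (-0.0055) and Ppp1r15a (-0.39), of which Ier3 was positive within each set (1.00 in set A and 0.60 in set B). With array set as a block 29 differences were positive and the median was 0.28. Array weights reversed Ier5 (-0.0069). With 1 array left out, Jund ran between -0.040 and 0.13, Egr3 between -0.044 and 0.10, Fosl1 between -0.013 and 0.19, Ier5 between -0.11 and 0.11, Nr4a1 between -0.0086 and 0.34 and Ppp1r15a between -0.11 and 0.29. The other 21 members kept their direction under every alternative to the comparison of all arrays. The values within each set are not part of that count. Some of the 21 changed direction there, such as Nr4a2 and Atf3 (-0.17 each in set B).

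Nfkbia had an adjusted p of 0.0870 and Ier3 of 0.0999 under the block for array set. The check made could not settle whether the replicate number is a pairing. With it as a block limma called 0 members and 33 probe sets, and 9 members had an unadjusted p under 0.05. Nr4a3 had no value under the floor, since all its arrays lay at it. The mean of several probe sets for each gene was not run, as each member had 1.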

Other observations

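The 8 probe sets outside the list whose pattern was most like the mean of the 34 genes, over deviations from group means on the 10 arrays, belonged to Dennd4b (Pearson r 0.928), Odf3b (0.920), Gdf3 (0.914), Slc37a1 (0.911), Plxna3 (0.909), Mri1 (0.907), Zfp414 (0.901) and Hpcal1 (0.899). Their differences between transgenic and wild-type cells ran from -0.32 (Slc37a1) to 0.18 (Hpcal1), and none was called by limma. All 8 were picked for this likeness from the same arrays.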
